A study of Rattus norvegicus with 6 samples.

Results

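The nuclear genes of mitochondrial oxidative phosphorylation were compared between pancreatic islets of 12-month-old and 3-month-old rats. The genes were taken by symbol, as all those starting with Nduf, Sdha, Sdhb, Sdhc, Sdhd, Uqcr, Cox4, Cox5, Cox6, Cox7, Cox8 or Atp5, and were found on the array through the RefSeq mRNA accession of each probe. Of 122 protein-coding rat genes with such a symbol, 81 had an mRNA probe, among 13882 genes named on the array, and the other 41 were not measured. By their place in the respiratory chain, 32 of the 81 belong to complex I, 4 to complex II, 7 to complex III, 17 to complex IV and 15 to complex V, and 6 are assembly factors that the same symbols take in. The islets came from male Wistar rats and were freed by collagenase digestion, and total RNA was labelled with Cy3 for 1-colour arrays. Both groups are untreated and differ in age, with 3 arrays at 3 months and 3 arrays at 12 months. Per the study's supplement the RNA came from 3 rats of each age, and the labels do not tie an array to a rat.

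Oxidative phosphorylation is carried out in the inner mitochondrial membrane. Complex I takes electrons from NADH and complex II takes them from succinate, complex III passes them to cytochrome c and complex IV to oxygen, and the proton gradient built on the way drives ATP synthesis by complex V. In beta cells the resulting rise of ATP closes potassium channels of the plasma membrane and triggers insulin release, so that these complexes couple glucose to secretion.

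Values are log2 signals after quantile normalisation, and each difference is the 12-month mean minus the 3-month mean on that log2 scale, so that a difference of 1 is a change of 2 fold. The scanner headers give 1 scan for the 3-month arrays and another for the 12-month arrays, so that an effect of scan and an effect of age cannot be told apart here. Negative control spots had a median signal of 29.5 to 31.0 at 3 months and 89.5 to 91.0 at 12 months, and 73.0% to 77.4% of probes stood well above background at 3 months against 59.5% to 64.2% at 12 months. In whole islets, fewer cells of a type and less RNA per cell cannot be told apart. The tissue was checked by marker genes, and 8 beta cell genes, 9 genes of other endocrine cells and 9 genes of acinar cells, the exocrine cells that surround islets, passed the filter described below.

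The promoters of these genes are shown first because they carry sequence motifs that the choice of genes did not use. Reference promoters of 300 bases were available for 72 of the 81 genes (RefSeq, assembly GRCr8). The letters GCGCATGC, part of the motif of nuclear respiratory factor 1 (Nrf1), were found on either strand in 11 of 72 (15.3%), against 2.66% of all 27457 promoters in the table. The ETS letters CCGGAAG, the core that GA-binding protein recognises, were found in 22 (30.6%) against 9.22%, and AAGATGGCG, part of the YY1 motif, in 8 (11.1%) against 1.93%. At least 1 of the 3 was present in 33 (45.8%) against 12.8%. Overlapping matches on opposite strands count once per promoter. A match describes the letters and shows no binding.

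Promoters of 3 genes are printed 5′ to 3′ along the gene's strand with the matches in capitals, since between them they hold all 3 motifs and each gene is described below. Atp5me lies at chr14:1464610-1464909 (plus strand), with palindromic NRF1 letters read on both strands and an ETS match on the opposite strand. Ndufs7 lies at chr7:10110449-10110748 (minus strand), with YY1 letters just after the transcription start. Sdhb lies at chr5:158547684-158547983 (plus strand), with NRF1 letters on the opposite strand and an ETS match on the same strand.
Atp5me: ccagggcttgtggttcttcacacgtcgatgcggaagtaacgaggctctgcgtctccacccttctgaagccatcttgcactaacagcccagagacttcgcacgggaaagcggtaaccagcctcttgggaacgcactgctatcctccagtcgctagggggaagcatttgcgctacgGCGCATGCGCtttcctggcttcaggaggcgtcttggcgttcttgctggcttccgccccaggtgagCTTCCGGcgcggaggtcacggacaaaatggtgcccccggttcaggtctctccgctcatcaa
Ndufs7: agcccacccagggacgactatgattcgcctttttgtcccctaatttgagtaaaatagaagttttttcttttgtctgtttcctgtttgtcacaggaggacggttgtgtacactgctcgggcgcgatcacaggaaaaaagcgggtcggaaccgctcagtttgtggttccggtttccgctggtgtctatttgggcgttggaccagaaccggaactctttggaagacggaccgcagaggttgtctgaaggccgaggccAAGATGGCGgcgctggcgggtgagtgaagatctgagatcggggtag
Sdhb: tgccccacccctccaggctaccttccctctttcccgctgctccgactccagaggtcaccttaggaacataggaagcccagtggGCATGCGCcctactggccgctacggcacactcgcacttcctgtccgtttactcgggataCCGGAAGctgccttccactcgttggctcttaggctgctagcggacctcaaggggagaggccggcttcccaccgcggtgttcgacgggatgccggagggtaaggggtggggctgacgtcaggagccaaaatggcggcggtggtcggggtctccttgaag
Among the tested genes with a promoter, the median log2 difference was 0.25 for the 10 with NRF1 letters and -0.08 for the 60 without. It was 0.11 for the 21 with the ETS letters and -0.15 for the 49 without, and 0.02 for the 8 with the YY1 letters and -0.03 for the 62 without. These medians are a description and were not tested.

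A gene was tested if its probe was marked by the scanner software as well above background on 3 or more of the 6 arrays. This left 79 of the 81 genes, of which 73 were well above background on all 6. Uqcrq, a small subunit of complex III, and Cox8c, the testis form of a complex IV subunit, were above background on 0 arrays and were not tested. The tested genes were among the brightest on the array, with a median signal at percentile 94.9 of all tested probes, and 58 of 79 lay in the brightest 20%.

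Of the 79 tested genes, 2 (2.53%) reached an adjusted p under 0.05 in limma after Benjamini-Hochberg adjustment over 17941 probes, against 8.37% of all tested probes (5.32% higher and 3.05% lower) and 3.54% of the brightest 20%. Both were lower at 12 months and both encode subunits of complex V, the ATP synthase. No gene was higher at that threshold. At an unadjusted p under 0.05 the genes numbered 2 higher (2.53%, against 13.7% of all probes) and 12 lower (15.2%, against 18.8%). Of the brightest 20% of probes, 10.9% were higher and 10.8% lower at that p, so the share of lower genes was above that of bright probes. At a change of more than 2 fold with an unadjusted p under 0.05 from limma, the same 2 genes were called, against 22.0% of all probes and 7.24% of the brightest 20%. In the study's supplement these limits go with a p from a paired t-test, while its main methods give a Student's t-test. The values of the 2 ages did not overlap in 31 of 79 genes (39.2%), 9 higher and 22 lower, against 39.3% of all probes (16.5% higher and 22.8% lower). In the brightest 20% they were apart in 29 of 58 genes (50%), against 40.4% of probes. The share of called genes was under that of all probes and the share of separated genes was close to it. In the brightest 20% the share called in either direction was close to that of probes, 3.45% of 58 genes against 3.54%. By direction it was not, since both called genes were lower, where 2.62% of those probes were called higher and 0.919% lower. The share separated was higher than that of probes. The share of called genes also depends on the processing. Called genes made up 10.1% against 9.59% of probes with arrays shifted to a common 75th percentile, 11.4% against 10.5% with normexp background correction, 13.9% against 11.3% with an intensity trend and robust variances, and 6.33% against 2.42% with an unpaired t-test.

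**Figure D1:**
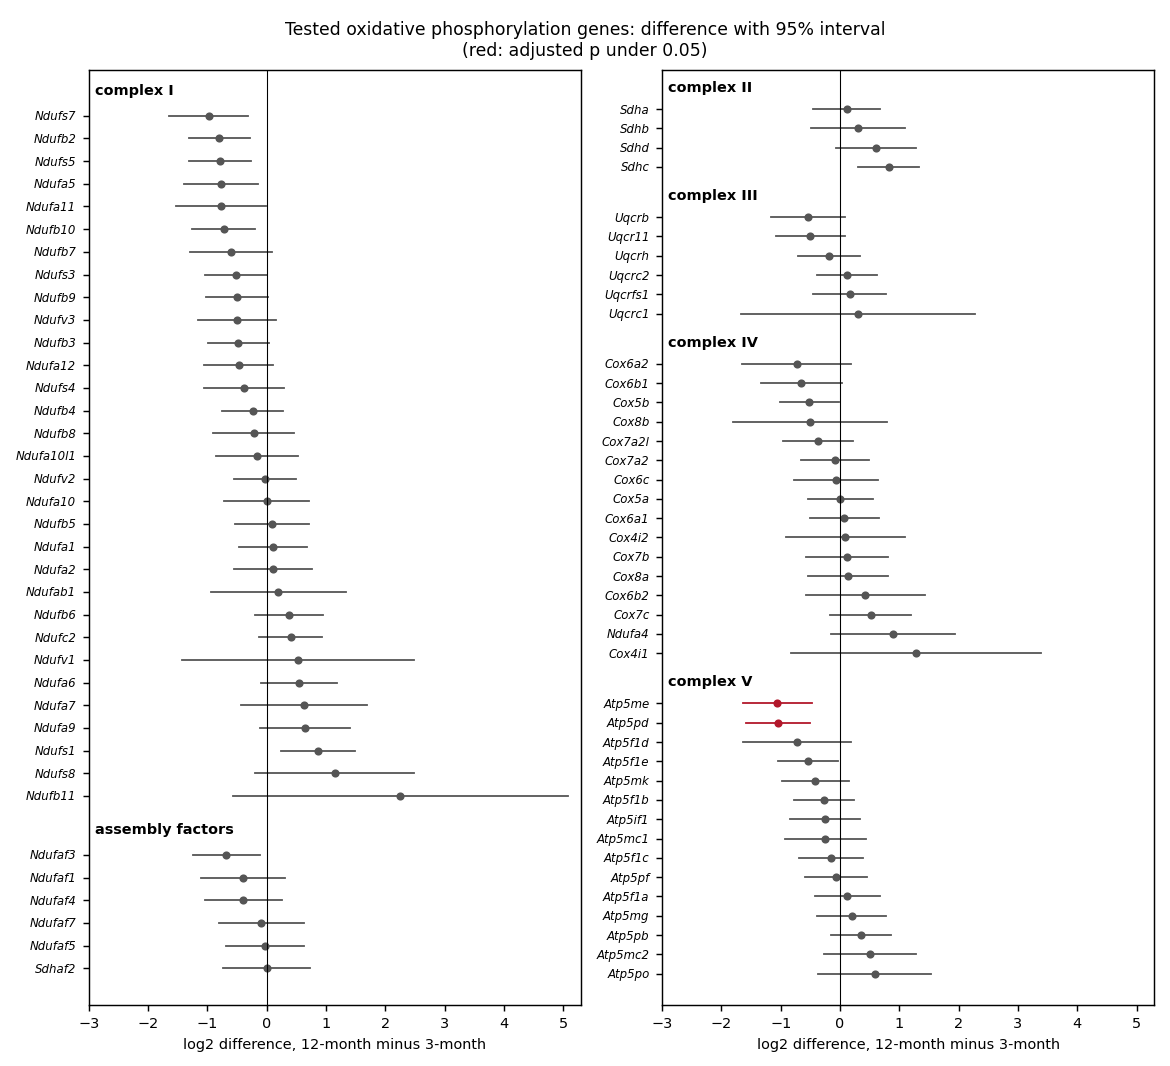
Log2 difference between 12-month and 3-month islets (x axis) with its 95% interval from limma for the tested genes, 1 of them left out, grouped by complex and ordered by size. Atp5me and Atp5pd, in red, are the only genes with an adjusted p under 0.05, and most other intervals cross 0.

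The median log2 difference of the 79 genes was -0.07, against -0.17 over all tested probes and -0.06 over the brightest 20%. Relative to all probes the genes thus lay 0.10 higher. Within the brightest 20% the order was the reverse, with a median of -0.16 for the 58 genes there against -0.06 for probes. Medians given below relative to all probes make no allowance for this brightness. With arrays shifted to a common 75th percentile in place of quantile normalisation, the median of all probes was -0.40 and that of the 79 genes also -0.40, so that the sign of a small difference depends on the scaling. Of the 79 genes, 37 had a difference above 0 and 42 below, and with the 75th percentile shift 22 were above 0. For 34 of 79 the 95% interval lay between -1 and 1, so that a change of 2 fold was outside it, and for 45 the difference was smaller than 0.50 in size. The median standard error was 0.26 and the median SD within an age 0.26, close to the 0.25 of the brightest 20% and below the 0.43 of all probes.

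Complex V held the 2 genes that passed. Atp5pd, subunit d of the peripheral stalk that holds the catalytic head still, gave signals of 13.10, 13.00 and 13.03 on the 3-month arrays and 11.93, 11.85 and 12.22 on the 12-month arrays. All 12-month values lay below all 3-month values, by more than the range of either age. Atp5pd fell by 1.04 on the log2 scale (SE 0.23, 95% interval -1.58 to -0.51, adjusted p = 0.040, limma). Atp5me, subunit e of the membrane part, where it takes part in pairing ATP synthases, gave 16.80, 16.55 and 16.55 at 3 months and 15.51, 15.86 and 15.36 at 12 months. The ages were again apart on all arrays, and Atp5me fell by 1.06 (SE 0.24, 95% interval -1.64 to -0.48, adjusted p = 0.047, limma). Both calls were close to the threshold. Atp5pd lost it without any 1 of the 6 arrays, and Atp5me without any 1 except 12-month replicate 2, while the differences stayed between -1.16 and -0.97 for Atp5pd and between -1.20 and -0.95 for Atp5me.

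The other 13 tested genes of complex V did not pass the test. The catalytic head subunits gave differences of 0.12 for Atp5f1a, with signals of 16.01, 16.13 and 15.88 at 3 months and 16.00, 16.34 and 16.06 at 12 months, and -0.27 for Atp5f1b, with 16.19, 16.22 and 16.35 against 15.92, 16.07 and 15.96. The Atp5f1a values of the ages overlapped, and those of Atp5f1b were lower on every 12-month array by a small margin (adjusted p = 0.40, limma). The central stalk subunits Atp5f1c, Atp5f1d and Atp5f1e gave -0.15, -0.73 and -0.55. Atp5f1e was lower on every 12-month array (15.70, 15.83 and 15.70 against 16.32, 16.18 and 16.36), with an unadjusted p of 0.038 and an adjusted p of 0.13 (limma). The other peripheral stalk genes gave 0.35 for Atp5pb, -0.07 for Atp5pf and 0.58 for Atp5po. Atp5if1, the inhibitor that stops the enzyme from running backwards, gave -0.25 (95% interval -0.84 to 0.34). The ring subunit genes Atp5mc1 and Atp5mc2 gave -0.25 and 0.50. Over the 15 genes the median difference was -0.25, or -0.07 relative to all probes, with 5 above and 10 below 0.

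**Figure D2:**
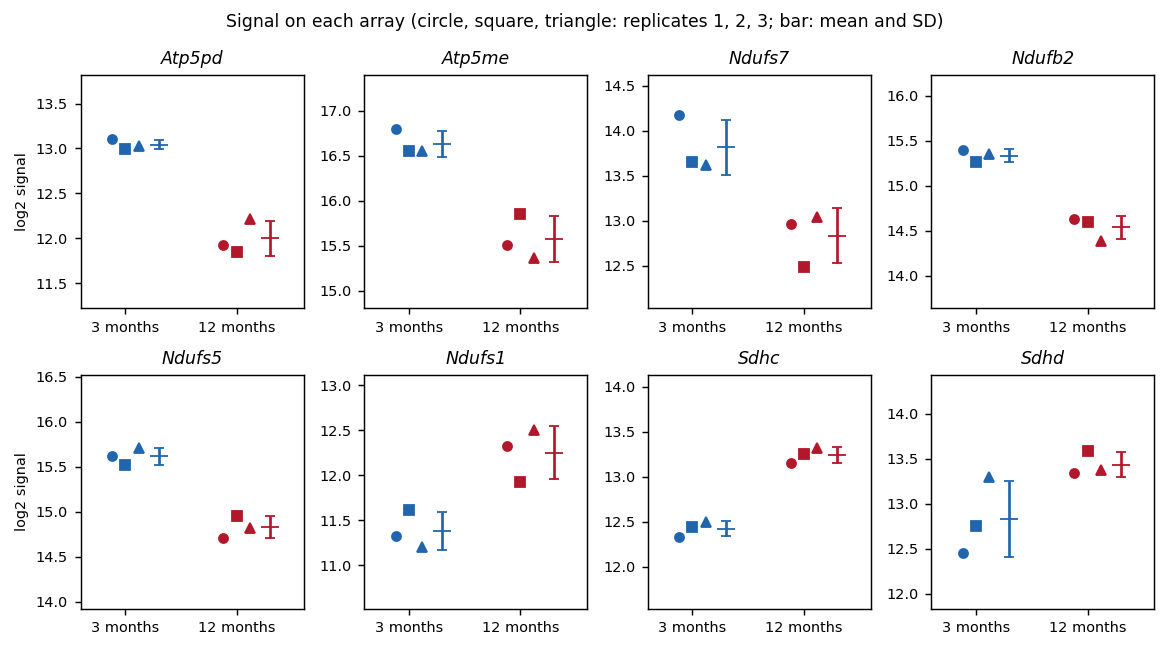
Log2 signal (y axis, each panel spanning the same range) on each 3-month array (blue) and 12-month array (red) for 8 genes, with the mean and SD of each age beside the points. The ages are apart in all 8 panels, while only Atp5pd and Atp5me have an adjusted p under 0.05.

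Complex II, succinate dehydrogenase, was the complex with the largest median difference, 0.45, or 0.62 relative to all probes. Its 4 subunit genes were all above 0, and 3 of 4 were above 0 with the 75th percentile shift, where Sdha was at -0.19. None passed the adjusted threshold (limma), and 1 was higher at an unadjusted p under 0.05, as were 13.7% of all probes. Sdhc, one of the membrane anchors, gave 12.33, 12.45 and 12.50 at 3 months and 13.15, 13.26 and 13.32 at 12 months. The ages were apart by more than the range of either, and the difference was 0.82 (SE 0.21, 95% interval 0.31 to 1.33, adjusted p = 0.061, limma). Sdhd, the other membrane anchor, gave 12.45, 12.75 and 13.30 against 13.34, 13.59 and 13.38, a difference of 0.60 with an adjusted p of 0.19 (limma). Its ages were apart only just, because 3-month replicate 3 lay near the 12-month values. The flavoprotein Sdha, which also oxidises succinate in the citric acid cycle, differed by 0.11 (95% interval -0.46 to 0.68), and its second probe gave 0.10. The iron-sulfur subunit Sdhb differed by 0.30 (95% interval -0.49 to 1.09), and its values overlapped. On single arrays the median deviation of the 4 genes from their own means was 0.26, 0.23 and 0.33 at 12 months and -0.40, -0.19 and -0.22 at 3 months, without overlap. With 4 genes in the group, this is a description of those genes.

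**Figure D3:**
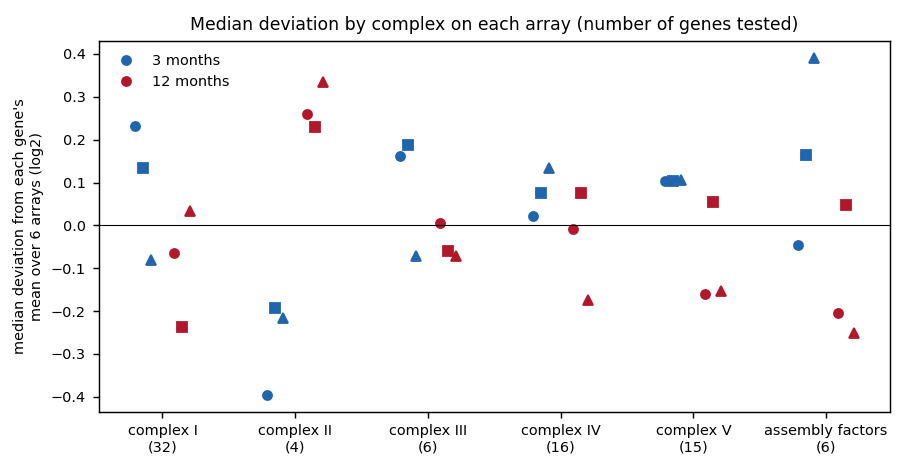
Median over the tested genes of each complex of the deviation from each gene's own mean over the 6 arrays (y axis, log2), on each array (circle, square and triangle for replicates 1, 2 and 3). The 12-month arrays lie above the 3-month arrays for complex II and below them for complex V, by small margins in complex V, and the ages overlap in the other groups.

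Complex I, the NADH dehydrogenase, had 32 tested genes and a median difference of -0.10, or 0.07 relative to all probes and -0.04 with the 75th percentile shift, with 15 above and 17 below 0. None passed the adjusted threshold (limma). At an unadjusted p under 0.05, 1 was higher and 7 were lower, beside 13.7% and 18.8% of all probes. The ages were apart in 16 of the 32 genes, 5 higher and 11 lower, beside 39.3% of all probes (16.5% higher and 22.8% lower). The 7 core genes measured, which carry the flavin and the iron-sulfur clusters, lay on both sides of 0. Ndufs1 gave 11.33, 11.61 and 11.20 at 3 months and 12.33, 11.92 and 12.50 at 12 months, a difference of 0.87 (SE 0.26, adjusted p = 0.081, limma). Ndufs7, which holds the cluster next to the quinone site, gave 14.17, 13.66 and 13.62 against 12.97, 12.49 and 13.05, a difference of -0.98 (SE 0.28, adjusted p = 0.073, limma). Both were apart between the ages on every array, in opposite directions, within the same core. Ndufs3 was at -0.52 and Ndufv2 at -0.03.

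Among the 25 accessory genes of complex I, which surround the core and take no part in electron transfer, 11 were above and 14 below 0, with a median difference of -0.22. The 10 genes with Ndufb symbols, most of them in the membrane arm, had a median of -0.36, with 7 below 0 and 5 lower on every 12-month array, as were 22.8% of all probes. Ndufb2 gave 15.40, 15.26 and 15.35 at 3 months and 14.63, 14.59 and 14.39 at 12 months, a difference of -0.80 (SE 0.22, adjusted p = 0.066, limma). Ndufs5 gave 15.62, 15.52 and 15.71 against 14.71, 14.95 and 14.82, a difference of -0.79 (SE 0.22, adjusted p = 0.069, limma). Ndufb10 followed at -0.73 (adjusted p = 0.085, limma), Ndufa5 at -0.77 (0.10) and Ndufa11 at -0.77 (0.15). In these 5 genes the ages did not overlap, and none passed the adjusted threshold. Ndufa6 at 0.54, Ndufc2 at 0.40 and Ndufb6 at 0.38 were higher on every 12-month array and did not pass either. These genes outside the core were picked after their values were seen.

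The largest difference of all members was the least certain. Ndufb11, a membrane arm subunit encoded on the X chromosome, gave 2.08, 3.77 and 2.13 at 3 months and 6.05, 2.08 and 6.61 at 12 months. Its probe stood well above background on 1 of the 3-month and 2 of the 12-month arrays, and 12-month replicate 2 lay as low as the lowest 3-month array. The difference of 2.25 had an SE of 1.19 and a 95% interval from -0.57 to 5.08. Without 12-month replicate 2 it was 3.67 and passed the adjusted threshold (limma), as did 12.1% of all probes in that fit.

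Complex III, the cytochrome bc1 complex, had 6 tested genes with a median difference of -0.03, or 0.14 relative to all probes. The Rieske iron-sulfur protein Uqcrfs1 was at 0.16 (95% interval -0.46 to 0.78) and the core protein gene Uqcrc2 at 0.12 (-0.39 to 0.63), both with overlapping ages, and with the 75th percentile shift Uqcrfs1 was at -0.16. Uqcrb, a ubiquinone-binding subunit, was the lowest at -0.54 (9.53, 9.60 and 9.89 at 3 months against 9.03, 9.48 and 8.88 at 12 months), and Uqcr11 was at -0.50. The ages of both were apart, both with an adjusted p of 0.20 (limma). Uqcrc1, the other core protein gene, was at 0.30 with an SE of 0.83, the widest in the complex.

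Complex IV, cytochrome c oxidase, had 16 tested genes with a median difference of 0.04, or 0.21 relative to all probes. Without the 2 arrays described further below the relative median was 0.11, and with the 75th percentile shift the median itself was -0.31. In 3 of the 16 genes the ages were apart, beside 39.3% of all probes, with all 3 lower at 12 months, and none passed the adjusted threshold (limma). Cox5b, a peripheral subunit on the matrix side, had the smallest unadjusted p of the complex, 0.045, with signals of 15.55, 15.60 and 15.62 at 3 months and 14.98, 15.13 and 15.11 at 12 months, a difference of -0.52 (SE 0.21, adjusted p = 0.15, limma). Cox5a was at 0.00 (95% interval -0.55 to 0.56).

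Several complex IV subunits exist as tissue forms. Of the forms found in most tissues, Cox6a1, Cox7a2 and Cox8a differed by 0.07, -0.09 and 0.13, with 95% intervals between -0.66 and 0.80. Cox4i1, the common form of subunit 4, was at 1.28 with a wide interval (-0.83 to 3.39). The forms of striated muscle, Cox6a2 and Cox8b, gave -0.73 (6.95, 6.96 and 6.68 at 3 months against 6.88, 6.07 and 5.45 at 12 months) and -0.50 (6.55, 5.93 and 6.48 against 4.58, 6.65 and 6.21). Both overlapped between the ages, did not pass the adjusted threshold (limma) and were well above background on 2 of the 12-month arrays. Of 10 tested marker genes of striated muscle, 5 were lower at 12 months at an adjusted p under 0.05 (limma) and 0 higher. Over all probes 3.05% were lower and 5.32% higher. Of the 10 genes, 3 had a difference above 0. The summed signal of the list was 3973 to 6455 at 3 months and 2243 to 3542 at 12 months. The muscle genes Myl2 and Mb were above background on all 3-month arrays and on none of the 12-month arrays, where negative control spots read higher. Both passed the filter through the 3-month arrays alone, so that their absence at 12 months is no separate evidence. The part of the muscle genes in the values of Cox6a2 and Cox8b was not tested. Cox4i2, the form of subunit 4 known from lung, was at 0.09 and turned to -0.25 with the 75th percentile shift. Ndufa4, now counted with complex IV, was at 0.89 with an SE of 0.44, with overlapping ages. Cox6b2, described as a testis form, stood well above background on all arrays and was at 0.43 (95% interval -0.57 to 1.42). Its counterpart Cox6b1 was at -0.65 (95% interval -1.33 to 0.02). Every 12-month value of Cox6b1 lay below the 3-month values, and it did not pass the adjusted threshold (limma).

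The 6 assembly factors had a median difference of -0.25, or -0.07 relative to all probes. Ndufaf3, which helps to build the quinone arm of complex I, was the lowest at -0.68 (12.21, 12.08 and 12.09 at 3 months against 11.41, 11.71 and 11.22 at 12 months, SE 0.24, adjusted p = 0.11, limma), and its second probe gave -0.73. Ndufaf1 and Ndufaf4 were both at -0.40 with overlapping ages. Sdhaf2, which attaches the flavin to Sdha, was at 0.00, and Ndufaf5 was at -0.03. These last 2 genes lacked a value on 3-month replicate 3 and were fitted on 5 arrays.

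The members differed in how well the arrays of an age repeated each other. In 65 of 79 genes the pooled SD within an age was under 0.50, and in 4 it was above 1. Of those 4, Ndufb11 is the dim probe above, and the other 3 were well above background on all arrays. Cox4i1, the common form of subunit 4 of complex IV, gave 10.32, 9.61 and 7.91 at 3 months and 10.995, 8.88 and 11.80 at 12 months. Uqcrc1 gave 11.86, 11.38 and 9.27 against 11.31, 9.88 and 12.23, and Ndufv1, the NADH-binding subunit, gave 10.28, 9.97 and 8.62 against 10.50, 8.45 and 11.53. In each of the 3 genes the same arrays were low, 3-month replicate 3 and 12-month replicate 2, by 1.35 to 2.11 below the next array of their age. Ndufs8, a core gene of complex I with the next largest SD, gave 8.82, 8.88 and 7.83 against 10.25, 8.47 and 10.25, again lowest on those arrays. Sdhb, Atp5po, Ndufab1, Ndufa9 and Ndufa11 were lowest on both as well.

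Of 77 tested genes with a value on all 6 arrays, 22 (28.6%) were lowest on both of these arrays within their age, against 17.7% of 17876 probes. Acinar genes were set beside them. Of 9 acinar genes, 5 were lowest on both arrays, among them Ctrb1, the precursor of chymotrypsin, at 14.02 and 14.39 against 16.61 to 17.91 on the other 4 arrays, and Cel, a lipase, at 14.82 and 14.36 against 17.15 to 17.88. The other 4, Amy2a3, Cpb1, Cela2a and Pnlip, differed by less than 0.5 among all arrays. The pattern was not particular to acinar genes. Gapdh of glycolysis was at 10.06 and 9.88 against 11.45 to 13.02 on the other 4 arrays. The antioxidant gene Gpx4 was at 8.24 and 7.75 against 10.44 to 12.99. The beta cell gene Ucn3 was lowest on both arrays as well, while the beta cell genes Ins1 and Nkx6-1 were not. The summed acinar signal was 1627519 on 3-month replicate 3 and 2257381 and 2273534 on the other 3-month arrays, and 1710922 on 12-month replicate 2 against 2392272 and 2532275. Whether acinar RNA has a part in the low values of Cox4i1, Uqcrc1, Ndufv1 and Ndufs8 was not tested. The intervals of these genes were wide. Cox4i1 was at 1.28 (95% interval -0.83 to 3.39) and Ndufs8 at 1.15 (-0.19 to 2.49). Without 12-month replicate 2 the difference of Cox4i1 was 2.12, and 3 members passed the adjusted threshold, Atp5me lower and Ndufb11 and Ndufs8 higher (limma). These were 3.8% of members, against 12.1% of all probes in that fit. Without both arrays 0 members passed the adjusted threshold, against 1.6% of all probes, in a fit of 2 arrays against 2 that was chosen after the values were seen. There 12 members had an unadjusted p under 0.05, and the share of all probes at that p was not counted.

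**Figure D4:**
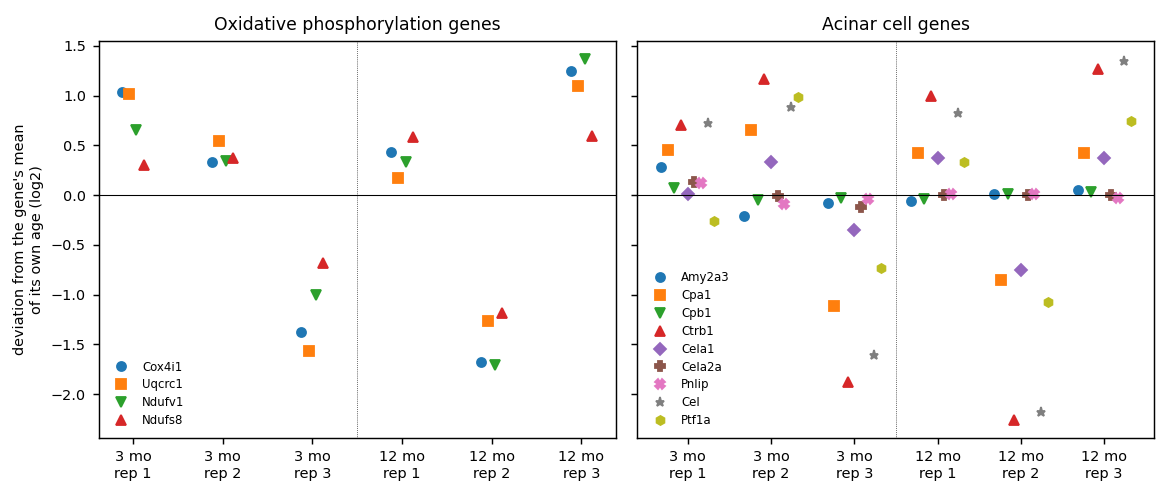
Deviation of each gene from its mean within its own age (y axis, log2) on each array, for the 4 oxidative phosphorylation genes with wide spread (left) and 9 acinar genes (right). All 4 genes on the left and 5 of the 9 on the right are lowest on 3-month replicate 3 and on 12-month replicate 2.

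Other genes of mitochondrial metabolism were taken from lists that surround the complexes. In the citric acid cycle 2 of 14 tested genes rose at an adjusted p under 0.05 (limma), and the list median was 0.10. Suclg2, the GDP-forming subunit of succinyl-CoA ligase, which makes the succinate that complex II oxidises, rose by 2.83 (9.29, 10.01 and 7.73 at 3 months against 11.70, 11.67 and 12.14 at 12 months). Among 8 genes of pyruvate entry, Pdk2, a kinase that switches off pyruvate dehydrogenase, fell by 0.99 (adjusted p = 0.040, limma). Among 6 genes of the NADH shuttles, the oxoglutarate carrier Slc25a11 rose by 2.05, with 8.69, 8.997 and 7.99 at 3 months and 10.76, 10.03 and 11.03 at 12 months. Coq4 and Pdss2, which act in the synthesis of coenzyme Q, the carrier between complexes I or II and III, fell by 1.19 and 1.12 among 14 electron carrier genes.

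Of 19 other assembly factors, 1 passed. Ecsit, part of the assembly machinery of complex I, fell by 1.11 (12.60, 12.58 and 12.58 against 11.30, 11.37 and 11.74, adjusted p = 0.037, limma). Of 8 genes of adenine nucleotide, phosphate and proton exchange, Ucp2, an uncoupling protein that limits insulin release in beta cells, rose by 3.27 (4.81, 5.18 and 4.52 against 8.41, 6.997 and 8.91, adjusted p = 0.018, limma). Of 7 mitochondrial antioxidant genes, Sod2, the superoxide dismutase of the matrix, rose by 1.48 (adjusted p = 0.035, limma). Of 13 regulators of mitochondrial biogenesis, 11 were above 0, and 10 with the 75th percentile shift, with a median of 0.51, and 1 passed. Yy1, the factor whose letters stand in 8 of the promoters, rose by 4.79, with 5.98, 5.82 and 4.23 at 3 months and 9.99, 9.82 and 10.59 at 12 months (adjusted p = 0.0062, limma). In glycolysis, the supply of pyruvate, 17 tested genes had a median difference of -0.25 and a range of -1.23 to 2.62, and 0 passed the adjusted threshold (limma). At an unadjusted p under 0.05, 1 was higher and 2 were lower, beside 13.7% and 18.8% of all probes. In these lists of 106 tested genes in all, 6 genes were called higher and 4 lower, where 5.32% and 3.05% of all probes were.

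Markers of the cells in the preparation moved as follows, where 5.32% of all probes were called higher and 3.05% lower. Of 8 beta cell genes, 2 rose (limma, adjusted p under 0.05), the glucose transporter Slc2a2 by 4.11 and the zinc transporter Slc30a8 by 3.71. The list median was 1.22, with summed signals of 829016 to 970490 at 3 months and 1052591 to 1198036 at 12 months. Of the 8 genes, 6 lay above 0, and 5 with the 75th percentile shift. Ins1, Ins2 and Nkx6-1 were at 0.10, -0.12 and -0.22, and with that shift Ins1 and Ins2 were both at -0.67. Of 9 genes of other endocrine cells, Hhex, a factor of delta cells, rose by 1.68, and the summed signal was 723508 to 793502 against 914540 to 1011018. With the 75th percentile shift 5 of the 9 were above 0, while Gcg, Sst and Ppy were at -0.22, -0.08 and -0.04. The summed signals were taken only after quantile normalisation. Of 9 stellate and pericyte genes, 2 rose, Abcc9 by 2.82 and Pdgfrb by 1.68, and of 8 nerve and Schwann cell genes 2 fell, Prph by 3.04 and Sox10, which lacked a value on 3-month replicate 1, by 2.08. Of 2 fat cell genes, Fabp4 rose by 2.49. No acinar, duct, endothelial, immune or red blood cell gene passed, with 9, 4, 6, 7 and 4 tested. At an unadjusted p under 0.05 the endothelial list had 1 higher and 3 lower, the red blood cell list 2 lower, and the acinar, duct and immune lists 0. Of all probes 13.7% were higher and 18.8% lower at that p. The part of these cell types in the values of the complexes was not tested.

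Pairs of probes and near copies limit some values. Of 3 members with a second probe, Sdha and Ndufaf3 repeated their difference, while Ndufv3 gave -0.50 on the probe used and 1.49 (SE 1.14) on the dimmer one. The rat genome holds 111 annotated pseudogenes with symbols of these families, and a probe may bind RNA of a close copy, so that values of single members are uncertain to that extent.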

How the data were processed

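RNA of 6 islet samples was hybridised to 1-colour Arraystar/Agilent arrays. Per the file headers, the deposited scanner files hold spot intensity from Agilent Feature Extraction 11.0.1.1, background-subtracted and not normalised between arrays. A second table, deposited by the authors, gives log2 values of 12145 probes. It followed the values computed here with a correlation of at least 0.9996 on each array and served as an alternative. The array design and the reference (RefSeq, GRCr8) use different builds, so coordinates are given only for reference promoters.

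Ages came from the labels. Outlier and control spots were left out, log2 intensity was averaged per probe and quantile normalised, and the brightest probe stood for a gene. Of 17944 probes marked well above background on 3 or more arrays, 17941 could be tested with limma 3.58.1 in R 4.3.3 (lmFit and eBayes, two-sided, no block), with Benjamini-Hochberg adjustment. Intervals are at 95%. An exact permutation test of 3 against 3 cannot give a p under 0.1. The number of arrays limits precision. In simulated data of 17876 probes with 200 changed, true folds of 2, 4 and 8 were recovered in 0%, 40.0% and 67.5%. The 200 were fewer than the 1502 probes called in the data, and fewer changes make the adjusted threshold stricter. They were drawn from all probes, with a median SD within an age of 0.43 against 0.26 for the members. These shares therefore do not give the recovery for the members.

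Gene symbols, lists, tests and alternatives were chosen with earlier results of these data known. The rule named called members, the largest rise and fall of each complex, core and tissue-form genes, and up to 3 called genes per list. Other genes were named after their values were seen. Grouping within complex I and the alternative that leaves out 2 arrays were also chosen after seeing the data. For 2 genes that enter the counts, single values are not given.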

Additional observations from a re-analysis of the deposited data

How the results depend on the processing

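The number of members at an adjusted p under 0.05 was 2, with 8.37% of all probes called. Shifting arrays to a common 75th percentile gave 8 members, 0 of them higher and 8 lower, with 9.59% of probes called. The number was 9 (2 higher and 7 lower) with normexp background correction, with 10.5% of probes called, and 5 of 73 with probes above background throughout, with 12.6%. It was 6 of 81 with no filter on dim probes, with 9.48% of probes called, 11 with an intensity trend and robust variances, with 11.3%, and 5 with an unpaired Student's t-test, with 2.42%. At an adjusted p under 0.1 it was 8. It was 2 in the authors' table, with 9.0% of probes called, and with the mean over the probes of a gene, with 8.37%. Leaving out each array gave 0 to 3, with 1.16% to 12.1% of probes called. It was 0 when fitted on the 4 arrays with names of a like ending, where 0 probes were called. There 3 members had an unadjusted p under 0.05, and the share of all probes at that p was not counted. The number was 0 without the 2 arrays with lower acinar markers, with 1.6% of probes called. At the threshold of the study the 2 calls became 9 with the 75th percentile shift, 1 with the 4 arrays, 4 without the 2 arrays, and 1 to 5 when each array was left out. The share of all probes at that threshold was 22% in the main fit and was not counted for these alternatives. The change in count is therefore no result about the members. Atp5pd and Atp5me kept their direction in all 18 alternatives and each passed in 8, with adjusted p from 0.013 to 0.30 and from 0.012 to 0.34 (limma, or the unpaired t-test).

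Replicate numbers did not pair the arrays. Same-numbered arrays deviated from their group means with correlations of -0.01, -0.31 and -0.26 across probes. With the replicate number as a block, 0 members passed with 3 pairs and 0 with the numbered pairs only, at an adjusted p under 0.05, where 0.541% and 0% of probes passed. In those fits 8 and 3 members had an unadjusted p under 0.05, and the share of all probes at that p was not counted. With the block on the numbered pairs, the relative median was 0.019 for all members, -0.18 for complex I, -0.16 for complex III and 0.098 for complex IV.

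The median of all members relative to all probes, 0.10, was 0.0021 with the 75th percentile shift, -0.0075 with normexp, 0.049 in the authors' table, 0.012 with probes above background on all arrays, 0.032 with no filter, 0.036 with the 4 arrays and 0.043 without the 2 arrays, and 0.029 to 0.16 when each array was left out. Relative medians that moved were, with the 75th percentile shift, 0.019 in complex III, 0.084 in complex IV and -0.21 in complex V. With probes above background on all arrays they were -0.11 in complex I, 0.53 in complex II, -0.16 in complex V and -0.32 in the assembly factors. With no filter they were 0.52 in complex II and -0.18 in complex V. Complex II was at 0.48 with normexp and 0.51 with the 4 arrays, the assembly factors at -0.28 in the authors' table, and complex IV at 0.11 without the 2 arrays. Leaving out each array gave -0.085 to 0.16 in complex I, 0.54 to 0.73 in complex II and -0.21 to 0.17 in complex III.

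Of 482 values of 27 named members under alternatives, 42 reversed in sign, none of them for a member past the adjusted threshold. With the 75th percentile shift Sdha was at -0.19, Sdhaf2 at -0.14, Uqcrfs1 at -0.16, Cox4i2 at -0.25, Cox5a at -0.32, Cox6a1 at -0.31, Cox8a at -0.27 and Atp5f1a at -0.39. With the block on the numbered pairs Uqcrc1 was at -1.03, Cox4i1 at -0.029, Sdhaf2 at -0.16 (also -0.16 with 3 pairs), Ndufv1 at -0.66, Sdhb at -0.059, Uqcrfs1 at -0.037, Cox5a at -0.042, Cox6a1 at -0.095 and Cox7a2 at 0.092. Sdhaf2 was at -0.11 with normexp. With the 4 arrays Sdhaf2 was at -0.10, Cox4i2 at -0.11 and Cox5a at -0.0068. Without the 2 arrays Cox5a was at -0.12, Cox6a1 at -0.11, Cox8a at -0.00049 and Atp5f1a at -0.046. Leaving out each array gave -0.0068 to 0.25 for Sdha, -0.48 to 0.93 for Uqcrc1, -0.16 to 0.13 for Sdhaf2, -0.15 to 1.39 for Ndufv1, -0.22 to 0.52 for Cox4i2, -0.077 to 0.13 for Cox5a, -0.096 to 0.17 for Cox6a1, -0.22 to 0.032 for Cox7a2, -0.078 to 0.28 for Cox8a and -0.92 to 0.11 for Cox8b. What caused them was not tested.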
